A study of Mus musculus with 36 samples.

Results

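Transcripts of 10 genes for chemokines and inflammatory mediators, *Ccl2*, *Ccl7*, *Cxcl1*, *Cxcl5*, *Cxcl12*, *Il6*, *Csf1*, *Vcam1*, *Ptgs2* and *Nfkbia*, were followed in differentiating brown pre-adipocytes. They were chosen by name, with earlier results of these data known. They were found among the 55536 genes counted in each of 36 RNA-seq libraries, by matching gene identifiers to symbols in GENCODE M21. The cells came from 2 *Rxra*-/- clones, named 48 and 66 by their cell culture numbers, which had been grown from single cells after Cas9 cutting of a clonal wild type line. All libraries therefore shared the loss, by frameshift mutations, of the endogenous retinoid X receptor alpha, and a retrovirus had put back either the wild type receptor (*Rxra*WT) or the receptor with serine 22 replaced by alanine (*Rxra*SA). There was no library of cells without a re-expressed receptor. Cells were collected at day 0, when they were confluent in a medium with insulin and triiodothyronine, at day 2, after culture with added dexamethasone, isobutylmethylxanthine and indomethacin, and at day 6, after return to the medium with insulin and triiodothyronine. Each clone, genotype and day had 3 replicates, so that each day had 12 libraries, 6 of each genotype and 6 of each clone.

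Chemokines are small secreted proteins that attract leukocytes through receptors on their surface. Pre-adipocytes and other stromal cells of fat make several of them, and the genes for many chemokines, for interleukin 6 and for the leukocyte adhesion molecule VCAM-1 carry binding sites for NF-kappaB. That factor is held in the cytoplasm by IkappaBalpha, the product of *Nfkbia*, which is itself an NF-kappaB target, and glucocorticoids such as dexamethasone are known to lower many inflammatory transcripts and to raise *Nfkbia*.

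Library totals ranged from 11351078 to 24349263 counts, and the lowest belonged to replicate 1 of clone 48 *Rxra*SA at day 0. None of the time comparisons below lost a call when that library was left out. *Rxra* lay between 92.6 and 712 CPM (counts scaled to a fixed library total) in all 36 libraries, with medians at day 0 of 166 CPM for *Rxra*WT, and 170.2 CPM in *Rxra*SA. Such counts hold no information on residue 22. The fat cell transcripts *Adipoq*, *Plin1*, *Fabp4*, *Pparg* and *Cidea* rose between days 0 and 2, and all 5 tested pre-adipocyte markers fell, while the brown fat marker *Ucp1* had 50 counts and the pre-adipocyte marker *Dlk1* had 3 counts over all libraries. The defining leukocyte transcripts were nearly absent: *Ptprc* had 4 counts in total, *Adgre1* 2, *Itgam* 7, *Tyrobp* 1 and *Cd3e* none. The sum over the 12 leukocyte markers was between 5.20 and 21.3 CPM, most of it from *Cd14*, *Cd68* and, at day 0, *Lyz2*. Endothelial *Cdh5* and *Kdr* had 5 and 4 counts, and the sum over 6 endothelial markers stayed between 0.278 and 2.43 CPM. By day 2 the 3 tested leukocyte markers were lower than at day 0, and of 2 tested endothelial markers 1 was higher and 1 lower.

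RefSeq start-site windows on GRCm38.p6, from 250 bases before to 50 bases after the start, were at hand for 6 of the 10 genes. The kappa B consensus, searched on both strands, had a match in 4 of these 6 windows, against 8.46% of all 32851 windows searched. The 4 stretches of 120 bases that hold the matches are printed because the genes moved differently from day 0 to day 2: in the average over clones *Cxcl1* and *Csf1* fell, *Nfkbia* rose and *Il6* did not pass the test, with opposite directions in the 2 clones. Capitals mark the match. They are written 5′ to 3′ in the direction of the gene, at chr5:90891125-90891244 (+) for *Cxcl1*, chr5:30012994-30013113 (+) for *Il6*, chr3:107760559-107760678 (-) for *Csf1* and chr12:55492648-55492767 (-) for *Nfkbia*.
Cxcl1: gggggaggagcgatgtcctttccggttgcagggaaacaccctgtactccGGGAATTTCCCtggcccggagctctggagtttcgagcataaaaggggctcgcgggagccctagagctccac
Il6: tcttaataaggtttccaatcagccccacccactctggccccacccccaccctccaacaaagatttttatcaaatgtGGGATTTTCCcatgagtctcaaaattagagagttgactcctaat
Csf1: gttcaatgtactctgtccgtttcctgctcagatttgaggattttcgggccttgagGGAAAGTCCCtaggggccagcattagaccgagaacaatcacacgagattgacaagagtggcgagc
Nfkbia: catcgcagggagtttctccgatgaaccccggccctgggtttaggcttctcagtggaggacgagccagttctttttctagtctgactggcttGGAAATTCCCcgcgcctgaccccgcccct
The match in *Cxcl1* covers 11 bases because it reads on both strands with an offset of 1 base. It begins 71 bases before the start, that of *Il6* 44 bases, that of *Nfkbia* 29 bases and that of *Csf1* 154 bases. The windows of *Cxcl12* and *Ptgs2* held none. Of the AP-1 type letters TGANTCA, *Il6* alone among the 6 held a match, 249 bases before its start, against 7.81% of all windows, and TGACGTCA was in none of the 6, against 1.79% of all windows. These matches describe the letters and not the binding of any factor.

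At day 0 the order of the 10 genes by median reads per kilobase of exon (RPKM, the CPM divided by exon length), the scale used here for comparing genes, began with *Ccl2* at 73.7 and *Ccl7* at 57.3. *Vcam1* followed at 56.2, *Cxcl12* at 45.4, *Nfkbia* at 26.8, *Cxcl5* at 26.4, *Csf1* at 25.4, *Ptgs2* at 17.9 and *Cxcl1* at 12.03, and *Il6* was last at 0.781. The ranges of the 12 libraries overlapped between all neighbours in this order except *Cxcl1* and *Il6*. At day 2 *Nfkbia* led with 68.1 RPKM, above every library of *Cxcl12*, the next at 10.6, and *Ccl2* had moved to the ninth place at 1.69. At day 6 *Nfkbia* again led at 34.0 RPKM, *Cxcl12* followed at 7.36, and *Ccl2* and *Ccl7*, at 1.32 and 1.27, were above *Il6* only, which had 0.105. The genes that headed the order before induction thus stood near its end after it.

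**Figure D1:**
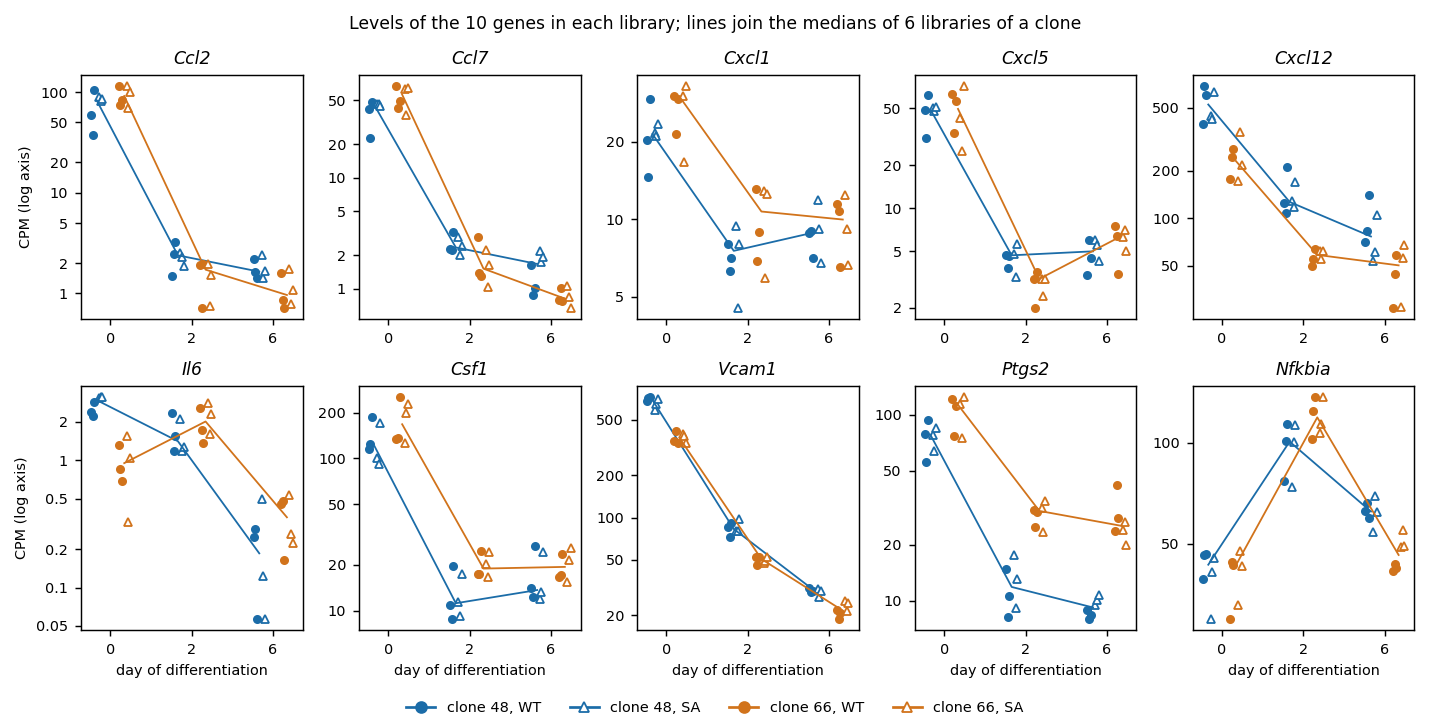
Level of each of the 10 genes in each of the 36 libraries, in CPM on a log axis, against the day of differentiation (clone 48 in blue, clone 66 in orange, filled circles *Rxra*WT, open triangles *Rxra*SA, lines through the medians of 6 libraries of a clone). *Ccl2* falls from 37.7-116 CPM at day 0 to 0.719-3.22 CPM at day 2, *Nfkbia* peaks at day 2, and *Ptgs2* at day 6 separates the clones, with 7.97-10.8 CPM in clone 48 and 19.8-41.9 CPM in clone 66.

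*Ccl2*, the monocyte chemoattractant MCP-1, lies at chr11:82035571-82037453 (GRCm38, GENCODE M21) on the plus strand. In clone 48 *Rxra*WT its day 0 level was 59.4, 37.7 and 104 CPM in replicates 1 to 3, and in clone 48 *Rxra*SA it was 90.3, 81.8 and 84.5 CPM. In clone 66 the values were 115, 74.1 and 83.1 CPM for *Rxra*WT and 116, 70.1 and 99.4 CPM for *Rxra*SA. At day 2 every library had between 0.719 and 3.22 CPM, from 13 to 52 counts, so that no library of day 2 came near a library of day 0. The level was 45.5-fold lower at day 2 than at day 0 (log2 fold change -5.51 ± 0.22 (SE), adjusted p = 7.97e-22). Between days 2 and 6 the medians were 1.926 and 1.499 CPM, and this difference did not pass the test (log2 fold change -0.38 ± 0.22, adjusted p = 0.14).

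*Ccl7* encodes MCP-3, a related attractant of monocytes, and begins 8258 bases beyond the end of *Ccl2* on the same strand, at chr11:82045712-82047525. Its day 0 level was 41.6, 22.6 and 47.7 CPM in clone 48 *Rxra*WT, and 46.1, 45.7 and 43.8 CPM in clone 48 *Rxra*SA. In clone 66 it was 67.4, 42.3 and 48.7 CPM for *Rxra*WT, and 63.4, 36.5 and 63.9 CPM in *Rxra*SA. All 12 libraries of day 2 had between 1.04 and 3.22 CPM, again without overlap with day 0, and the level was 22.6-fold lower (log2 fold change -4.50 ± 0.20, adjusted p = 1.4e-20). Unlike *Ccl2*, it passed the test for a further fall to day 6 (-0.85 ± 0.21 on the log2 scale, adjusted p = 0.000655), although the difference between both genes in this step was not tested. The other chemokine genes of this stretch of chromosome 11 had few or no reads: *Ccl11* had 67 counts and *Ccl8* 47 counts over the 36 libraries, and *Ccl12* had none, against 20843 for *Ccl2* and 12070 for *Ccl7*.

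*Cxcl1* and *Cxcl5* encode attractants of neutrophils and lie on chromosome 5, with *Cxcl5* at chr5:90759360-90761624 and *Cxcl1* at chr5:90891241-90893115, 129616 bases apart. *Cxcl5* had 30.9 to 62.4 CPM at day 0 in clone 48 (median 49.3) and 25.0 to 72.2 CPM in clone 66 (median 49.6). At day 2 the 12 libraries had 1.99 to 5.62 CPM, below all of day 0, a 13.2-fold difference (log2 fold change -3.73 ± 0.18, adjusted p = 3.18e-19). Averaged over clones, it was the only one of the 10 genes that passed the test for a rise from day 2 to day 6, from a median of 3.40 to 5.70 CPM (log2 fold change 0.57 ± 0.18, adjusted p = 0.0054), and its ranges on both days overlapped. The medians went from 4.66 to 4.98 CPM in clone 48 and from 3.19 to 6.33 CPM in clone 66. Within clones the rise passed the test in clone 66 only, and the difference between clones did not pass.

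*Cxcl1* began lower, with 20.4, 14.5 and 29.4 CPM in clone 48 *Rxra*WT, 21.7, 21.2 and 23.4 CPM in clone 48 *Rxra*SA, 30.2, 21.5 and 29.3 CPM in clone 66 *Rxra*WT and 30.2, 16.6 and 33.1 CPM in clone 66 *Rxra*SA. It fell to between 4.51 and 13.0 CPM at day 2, with no overlap with day 0, which was 2.83-fold lower (log2 fold change -1.503 ± 0.155, adjusted p = 1.15e-10) and the least of the 8 decreases in this step. From day 2 to day 6 the difference was 0.10 ± 0.15 on the log2 scale and did not pass the test (adjusted p = 0.598). Of the chemokine genes listed around *Cxcl5* and *Cxcl1* in the same stretch, *Ppbp* had 84 counts in total, *Cxcl15* 33, *Pf4* 26, *Cxcl2* 24 and *Cxcl3* 17, against 13584 for *Cxcl5* and 9649 for *Cxcl1*. Reads of these genes were thus almost confined to the named pair in this stretch, as they were to *Ccl2* and *Ccl7* on chromosome 11.

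*Cxcl12*, at chr6:117168535-117181367, encodes the stromal chemokine SDF-1, which keeps hematopoietic and other CXCR4-bearing cells in their niches. At day 0 it had 392, 688 and 604 CPM in clone 48 *Rxra*WT, 442, 425 and 628 CPM in clone 48 *Rxra*SA, 178, 244 and 276 CPM in clone 66 *Rxra*WT and 172, 352 and 216 CPM in clone 66 *Rxra*SA. At day 2 it had 109 to 212 CPM in clone 48 and 50.2 to 63.9 CPM in clone 66. Both days overlapped over all 12 libraries, since the highest day 2 value of clone 48 exceeded the lowest day 0 values of clone 66, but within each clone they did not. The fall was 3.88-fold (log2 fold change -1.96 ± 0.17, adjusted p = 2.11e-12), with -1.88 ± 0.24 in clone 48 and -2.04 ± 0.25 in clone 66. Averaged over clones, it passed the test again from day 2 to day 6 (-0.53 ± 0.17, adjusted p = 0.00631). In this step the medians went from 127 to 76.8 CPM in clone 48 and from 58.8 to 50.5 CPM in clone 66. The day 6 range of clone 66, 27.1 to 67.7 CPM, spanned its day 2 range. The difference between clones in this step did not pass the test.

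*Il6*, at chr5:30013114-30019981, encodes interleukin 6 and was the least abundant of the 10 genes on each day. At day 0 it had 2.37, 2.24 and 2.85 CPM in clone 48 *Rxra*WT and 3.08, 3.15 and 3.12 CPM in clone 48 *Rxra*SA, which were 37 to 61 counts per library. In clone 66 it had 1.32, 0.860 and 0.690 CPM for *Rxra*WT, and 1.55, 0.329 and 1.04 CPM in *Rxra*SA, which were 7 to 31 counts. At day 2 the clones overlapped, with 1.17 to 2.34 CPM in clone 48 and 1.36 to 2.82 CPM in clone 66. Averaged over clones, *Il6* was the only one of the 10 genes that did not pass the test between days 0 and 2 (log2 fold change 0.08 ± 0.27, adjusted p = 0.801). That average joined opposite values, -0.80 ± 0.28 in clone 48 and 1.10 ± 0.30 in clone 66. At day 6 the 12 libraries held 63 counts of *Il6* in all, from 1 to 11 per library, and the level was 6.36-fold lower than at day 2 (log2 fold change -2.67 ± 0.34, adjusted p = 1.83e-08), at counts where counting error is large.

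*Csf1*, at chr3:107741048-107760469 on the minus strand, encodes macrophage colony-stimulating factor, the growth factor of macrophages. Its day 0 values were 116, 125 and 187 CPM in clone 48 *Rxra*WT, 101, 91.8 and 170.5 CPM in clone 48 *Rxra*SA, 133, 135 and 254 CPM in clone 66 *Rxra*WT and 127, 199.9 and 228 CPM in clone 66 *Rxra*SA. Replicate 3 was the highest of its 3 libraries in each of these 4 groups. At day 2 all libraries lay between 8.84 and 24.7 CPM, without overlap with day 0, and the level was 9.47-fold lower (log2 fold change -3.24 ± 0.18, adjusted p = 1.11e-17). Between days 2 and 6 the medians were 17.4 and 16.96 CPM, and the difference did not pass the test (log2 fold change 0.19 ± 0.17, adjusted p = 0.328).

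*Vcam1* encodes vascular cell adhesion molecule 1, which binds the integrin VLA-4 of leukocytes and is also carried by stromal cells. It lies at chr3:116109949-116129688 on the minus strand, and its exons overlap those of 1 other annotated gene, *Gm43109*, whose level was at most 1.94 CPM. At day 0 it had 678, 712 and 729 CPM in clone 48 *Rxra*WT, 585, 642 and 702 CPM in clone 48 *Rxra*SA, 349, 413 and 341 CPM in clone 66 *Rxra*WT and 396, 379 and 342 CPM in clone 66 *Rxra*SA. It was the steadiest of the 10 genes between replicates, with a standard deviation of 0.12 on the log2 scale within groups at day 0. It fell in both steps without any overlap, to 46.1-98.3 CPM at day 2 (log2 fold change -2.94 ± 0.07, adjusted p = 2.51e-27) and to 18.9-31.2 CPM at day 6 (-1.34 ± 0.07 from day 2, adjusted p = 5.18e-18). Over the whole period it was 19.4-fold lower.

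*Ptgs2* encodes cyclooxygenase 2, the inducible enzyme of prostaglandin synthesis and a target of indomethacin as a protein, and lies at chr1:150100031-150108227. It had 78.7, 55.8 and 93.3 CPM at day 0 in clone 48 *Rxra*WT, 77.7, 64.2 and 85.0 CPM in clone 48 *Rxra*SA, 122, 77.2 and 112 CPM in clone 66 *Rxra*WT and 114, 74.6 and 125 CPM in clone 66 *Rxra*SA. In each of these 4 groups replicate 2 was the lowest. At day 2 the range was 8.22 to 34.3 CPM, below all of day 0, and the level was 4.78-fold lower (log2 fold change -2.26 ± 0.16, adjusted p = 1.34e-14). From day 2 to day 6 the difference was -0.23 ± 0.16 and did not pass the test (adjusted p = 0.215). Without replicate 2 of clone 66 *Rxra*WT at day 6, the highest library of that day with 41.9 CPM, it was -0.34 and did pass (adjusted p = 0.0444), as it did without all libraries of replicate 2 of clone 66 (-0.37, adjusted p = 0.0212).

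*Nfkbia*, at chr12:55489410-55492647 on the minus strand, was the only one of the 10 genes that rose from day 0 to day 2 in the average over clones. It had 39.2, 46.3 and 46.7 CPM at day 0 in clone 48 *Rxra*WT, 29.9, 41.3 and 45.3 CPM in clone 48 *Rxra*SA, 29.8, 44.1 and 43.3 CPM in clone 66 *Rxra*WT and 32.8, 47.4 and 42.9 CPM in clone 66 *Rxra*SA. At day 2 it had 76.7, 101 and 114 CPM in clone 48 *Rxra*WT, 73.8, 101 and 113 CPM in clone 48 *Rxra*SA, 102, 124 and 137 CPM in clone 66 *Rxra*WT and 107, 113 and 137 CPM in clone 66 *Rxra*SA, so that the lowest of day 2 exceeded the highest of day 0. The rise was 2.66-fold (log2 fold change 1.41 ± 0.11, adjusted p = 9.12e-14). At day 6 it had dropped to 41.4-69.6 CPM (-0.996 ± 0.108 from day 2, adjusted p = 7.43e-10), which overlapped with day 0 and was still 1.33-fold above it (log2 fold change 0.42 ± 0.11, adjusted p = 0.000946). With scaling by library size alone this last difference was 0.23 and did not pass the test (adjusted p = 0.0571). Within clones, day 6 against day 0 was 0.59 on the log2 scale in clone 48, which passed the test, and 0.22 in clone 66, which did not. The medians at days 0 and 6 were 43.3 and 62.4 CPM in clone 48, and 43.1 and 46.3 CPM in clone 66. The difference between clones in this change did not pass the test.

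From day 0 to day 2, 9 of the 10 genes passed the test, with 8 down and 1 up. Of the 16723 genes tested 73.3% did so, 37.5% down and 35.8% up. Changing at all was thus common and is no result about these genes. The median log2 fold change of the 10 genes was -2.60, against -0.02 over all genes, and the median of the absolute values was 2.60, against 0.62. Because the genes were chosen with earlier results of these data known, such contrasts with all genes may be partly set by the choice. From day 2 to day 6, 6 of 10 passed, with 5 down and 1 up, and 62.0% of all genes did (30.1% down and 31.9% up). The median was -0.45 against 0.01. From day 0 to day 6 all 10 passed, 9 of them lower, and 68.3% of all genes did (35.4% down and 32.9% up). Day and medium changed together and cannot be told apart. The sum over the 6 fat cell markers was 78.7 to 169 CPM at day 0, 2174 to 4388 CPM at day 2 and 4977 to 8912 CPM at day 6. It was made up almost wholly of general fat cell transcripts, since *Ucp1* and *Cidea* had 50 and 213 counts over all libraries. The sum over the leukocyte markers was 13.6 to 21.3, 5.20 to 7.93 and 9.23 to 15.4 CPM, with the defining leukocyte genes at or near 0 throughout. The part of the change in cell state in the falls was not tested. Bulk libraries cannot tell fewer cells that express a gene from less RNA per cell. Library-size scaling alone moved the median of all genes by -0.26 (day 2 against day 0) on the log2 scale and the share of calls that were higher from 48.9% to 33.6%, and for day 6 against day 0 by -0.19 and from 48.2% to 34.9%.

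**Figure D2:**
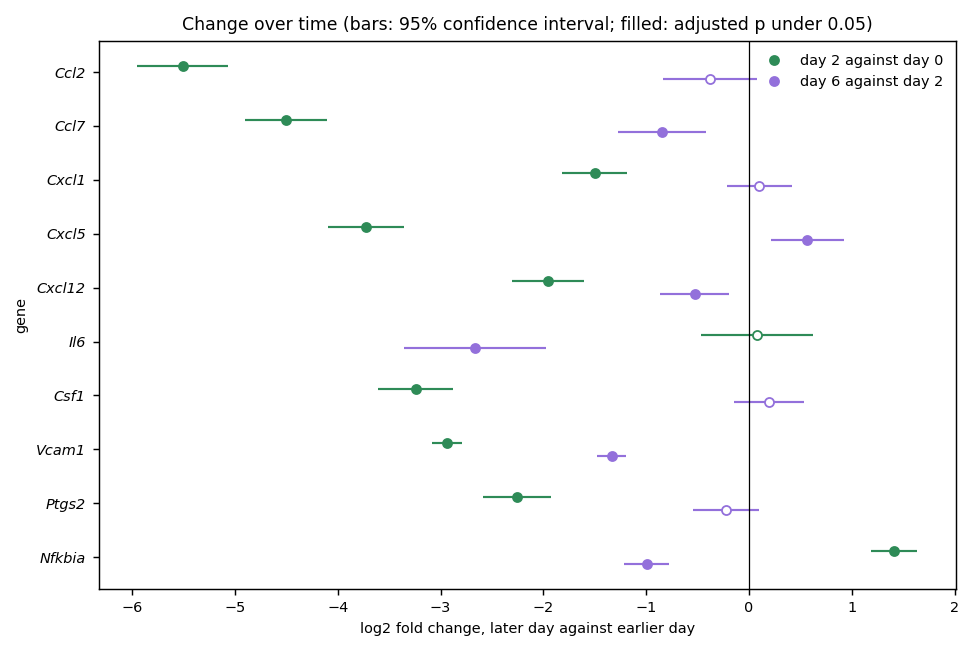
Log2 fold change of each of the 10 genes from day 0 to day 2 (green) and from day 2 to day 6 (purple), with 95% confidence intervals as bars and filled points for an adjusted p under 0.05. The decreases of the first step run from -1.503 (*Cxcl1*) to -5.51 (*Ccl2*), *Nfkbia* is the one filled point right of 0 in that step, and *Il6*, averaged over clones, passes the test in the second step only.

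The list of receptors that bind the products of these genes held 15 genes, of which 9 had from 0 to 8 counts over all 36 libraries, whose counts summed to 660923583. *Ccr2*, the main receptor of CCL2 on monocytes, had no count, nor had *Ackr1*, a receptor that takes up chemokines without signalling. *Ccr1* had 1 count, *Ccr3* 2, *Cxcr1* 3, *Cxcr2*, the receptor of CXCL1 and CXCL5, 8, *Cxcr4*, the signalling receptor of CXCL12, 2, and *Itga4*, the alpha chain of the VCAM-1 ligand VLA-4, 1. Transcripts of the chemokine receptors that signal were therefore at or near 0 on all 3 days, while the 5 chemokines had median levels of 12.03 to 73.7 RPKM at day 0.

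Of the other receptors, both chains of the interleukin 6 receptor passed the filter on low counts, with *Il6ra* at a far lower level than *Il6st*. *Il6st*, the shared signal chain gp130, had median levels of 380.1, 189 and 131 CPM on the 3 days and fell in both steps (log2 fold changes -0.98 ± 0.14 and -0.57 ± 0.14, adjusted p = 1.23e-07 and 0.000614). *Il6ra*, the ligand-binding chain, rose from a median of 8.78 to 24.9 CPM (log2 fold change 1.52 ± 0.23, adjusted p = 3.98e-07) and then fell to 16.6 CPM (-0.68 ± 0.22, adjusted p = 0.00839). The receptor chains thus moved in opposite directions to day 2, when *Il6* itself, averaged over clones, did not pass the test, and both fell to day 6, as *Il6* did.

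*Itgb1*, the beta chain shared by many integrins, had 1276 CPM at day 0 and 799 CPM at day 2 (log2 fold change -0.71 ± 0.06, adjusted p = 4.74e-13). *Csf1r*, the receptor of *Csf1*, and *Ackr2*, a scavenger of CC chemokines, had 188 and 46 counts in total and did not pass the filter on low counts. *Ackr3*, a scavenger receptor of CXCL12, had 5 to 38 counts per library at day 0 in clone 48 and 0 to 5 in clone 66. At day 2 it had 9 to 17 counts in clone 48 and 0 to 4 in clone 66, and at day 6 0 to 8 and 0 to 6. It passed the filter on low counts only through the libraries of clone 48. A test between clones could therefore not serve as support for a difference, and none is given.

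**Figure D3:**
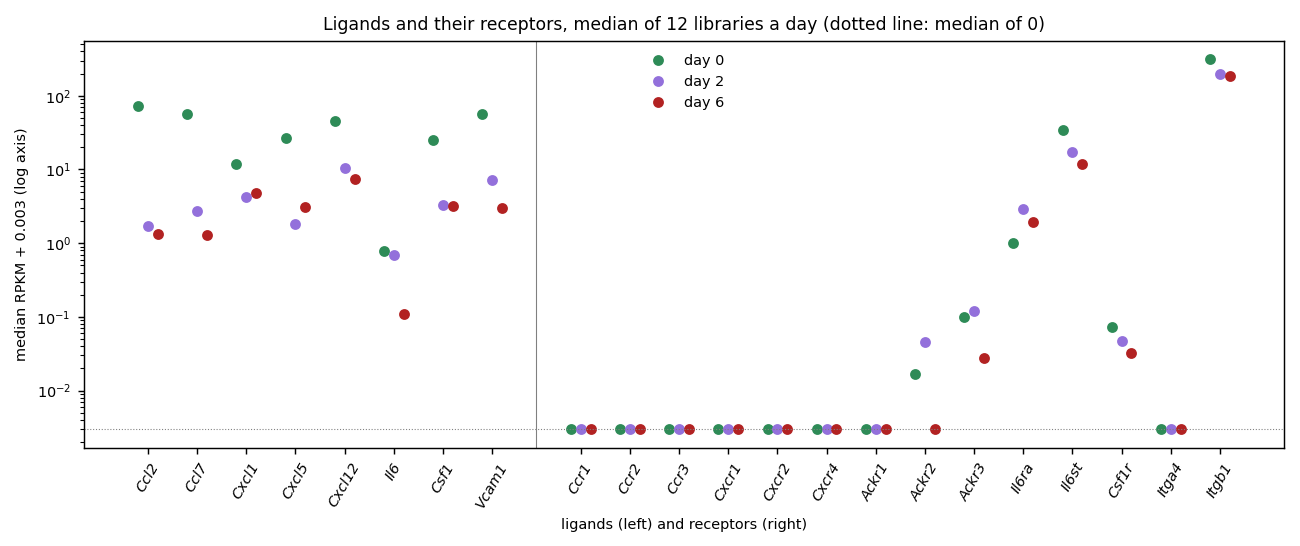
Median RPKM of 12 libraries on each day, plus 0.003 on a log axis, for 8 of the 10 genes whose products bind a listed receptor (left) and receptor genes of the list (right), with days in colour and a dotted line where the median is 0. *Ccr2*, *Cxcr2* and *Cxcr4* lie on the dotted line on every day, whereas *Itgb1*, *Il6st* and *Il6ra* stand at or above 1.02 RPKM at day 0.

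Other genes of these pathways were read from lists chosen with earlier results of these data known, and their counts are to be read against the 73.3% and 62.0% of all tested genes called in the first and the second step. Of 31 other chemokines 27 had a count and 8 passed the filter, and between days 0 and 2 the test called 5 lower and 1 higher, near the share of 73.3% among all genes, with a median log2 fold change of -1.32. *Cx3cl1*, the membrane-bound fractalkine, fell from a median of 19.1 to 7.42 CPM and then to 2.83 CPM (log2 fold changes -1.65 ± 0.25 and -1.26 ± 0.27, adjusted p = 5.92e-07 and 0.000113). *Ccl9*, an attractant of CCR1-bearing cells, fell from 44.3 to 26.1 CPM (-0.99 ± 0.24, adjusted p = 0.000318) and came back to 49.1 CPM (1.11 ± 0.24, adjusted p = 0.000116). *Ccl25*, known for drawing T cells to thymus and gut, was the one that rose, and its day 6 level was 0.39 ± 0.07 above day 0 on the log2 scale (adjusted p = 6.11e-06).

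Among 20 genes of NF-kappaB components and feedback inhibitors other than *Nfkbia*, 19 were tested, and 10 were lower and 2 higher at day 2 than at day 0, a smaller share than the 73.3% of all genes (median log2 fold change -0.36). From day 2 to day 6, 13 were higher and 3 lower, where 62.0% of all genes were called (median 0.42). *Ikbke*, an inducible kinase of the pathway, and *Nfkbie*, another inhibitor of the IkappaB family, fell to day 2 (-2.28 ± 0.20 and -2.03 ± 0.13, adjusted p = 4.04e-12 and 5.58e-16) and rose to day 6 (1.30 ± 0.21 and 1.21 ± 0.13, adjusted p = 1.63e-06 and 1.04e-09). The course of *Nfkbie* was thus the reverse of that of *Nfkbia*. *Tnfaip3*, which encodes the feedback inhibitor A20, and its partner *Tnip1* were higher at day 6 than at day 0 (1.16 ± 0.11 and 1.11 ± 0.26, adjusted p = 4.65e-11 and 0.000338).

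Of 19 genes for prostanoid enzymes, transporters and receptors beside *Ptgs2*, 15 were tested, with 12 lower and 2 higher at day 2 than at day 0 (median log2 fold change -1.16), where 73.3% of all genes were called. At day 6, 6 were higher and 4 lower than at day 2, where 62.0% of all genes were called. *Ptgs1*, the constitutive cyclooxygenase, had a median of 224 CPM at day 0 and fell mainly in the second step, to 23.5 CPM at day 6 (log2 fold change -3.19 ± 0.12 from day 0, adjusted p = 2.14e-22). *Ptgir*, the prostacyclin receptor, fell by 4.10 ± 0.22 on the log2 scale to day 2 and rose by 3.07 ± 0.22 to day 6 (adjusted p = 5.14e-18 and 3.97e-14). *Ptgfr*, the receptor of prostaglandin F2alpha, which inhibits adipogenesis, rose by 2.84 ± 0.19 from day 2 to day 6 (adjusted p = 3.15e-15). *Ptger1*, an E prostaglandin receptor, was lower at day 6 than at day 0 (-1.93 ± 0.15, adjusted p = 2.08e-13), and *Ptges2*, a gene named for a prostaglandin E synthase, was higher at day 2 (2.15 ± 0.08, adjusted p = 9.07e-23).

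In the list of 23 other cytokines and cytokine receptors 13 were tested, with 7 lower and 4 higher at day 2 than at day 0, where 73.3% of all genes were called. *Il1rl1*, the interleukin 33 receptor ST2, fell from a median of 59.0 to 0.650 CPM (log2 fold change -6.49 ± 0.42, adjusted p = 6.57e-16). *Tnfrsf1b*, the second receptor of tumour necrosis factor, rose to day 2 (1.43 ± 0.16, adjusted p = 4.47e-10) and fell to day 6 (-1.89 ± 0.16, adjusted p = 1.67e-12), and *Mif*, a cytokine present in most cells, rose from 134 CPM at day 0 to 1295 CPM at day 6 (3.18 ± 0.11, adjusted p = 6.04e-23). The classical inducers of this programme were not seen as transcripts: *Il1b* had no count and *Tnf* had 4 counts in all libraries. Of 8 other adhesion molecules 3 were tested, and in contrast to *Vcam1*, *Mcam* and *Alcam* were higher at day 2 than at day 0 (3.32 ± 0.17 and 2.22 ± 0.18, adjusted p = 8.99e-19 and 2.23e-13), while *Cd44*, the hyaluronan receptor, fell from day 2 to day 6 (-2.06 ± 0.11, adjusted p = 1.63e-17).

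The study asked what the loss of the phosphorylation site at residue 22 does to gene expression, and for these 10 genes no difference passed the test. At day 0 the log2 fold changes of *Rxra*SA against *Rxra*WT lay between -0.07 (*Csf1*) and 0.22 (*Il6*), at day 2 between -0.12 (*Ccl7*) and 0.14 (*Ptgs2*), and at day 6 between -0.14 (*Ptgs2*) and 0.43 (*Ccl7*). The test by edgeR called none of the 10 genes and 0.0% of the 16723 genes on any day, and at an unadjusted p under 0.05 none of the 10 genes and 139, 162 and 125 of all genes at days 0, 2 and 6. DESeq2 also called 0 genes on each day, with 233, 258 and 231 at an unadjusted p under 0.05. The libraries of both genotypes overlapped for each of the 10 genes on each day. The share of all genes with such overlap was not counted, so this is no result about these genes.

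The intervals of the fit without pairing show its precision. For *Vcam1* the 95% interval of the fold change was 0.838 to 1.09 at day 0, 0.886 to 1.16 at day 2 and 0.932 to 1.23 at the last time point. For *Nfkbia* it was 0.778 to 1.19, 0.794 to 1.21 and 0.871 to 1.33. *Ccl2* allowed 0.811 to 1.595 at day 0 and 0.599 to 1.44 at day 2, *Ccl7* allowed 0.871 to 2.10 at day 6, and the intervals of *Il6* were widest, 0.693 to 1.96 at day 0 and 0.419 to 2.46 at day 6. The missing calls do not show equal expression. With a replicate block within days, which sets each library against its same-numbered partner, the standard errors were smaller, such as 0.09 in place of 0.23 for *Csf1* at day 0 (log2 fold change -0.07) and 0.12 in place of 0.23 for *Cxcl12* at day 6 (-0.12). None of the 10 genes was called in that paired fit either, the smallest adjusted p being 0.807, and *Ccl2* at day 0 (0.26 ± 0.12) was the one with an unadjusted p under 0.05. Over all genes it called 0, 1 and 0 on the 3 days, or 0.0%, 0.00598% and 0.0%, with 704, 692 and 477 at an unadjusted p under 0.05. At day 6, 4 of 6 same-numbered pairs of libraries had more *Ccl7* in *Rxra*SA, with a median of 0.42 on the log2 scale and a range from -0.28 to 0.98. The clones differed here. In clone 48 it had 0.873 to 1.62 CPM in *Rxra*WT and 1.72 to 2.17 CPM in *Rxra*SA, and in clone 66 0.771 to 1.02 and 0.669 to 1.06 CPM. These were 14 to 39 counts per library, and within clone 48 none of the 10 genes was called. The change of these genes over time also did not pass a test for a difference between genotypes: 0 of 10 were called in each of the 3 comparisons, as were 0.0% of all genes (144, 153 and 128 at an unadjusted p under 0.05, and 0 by DESeq2).

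**Figure D4:**
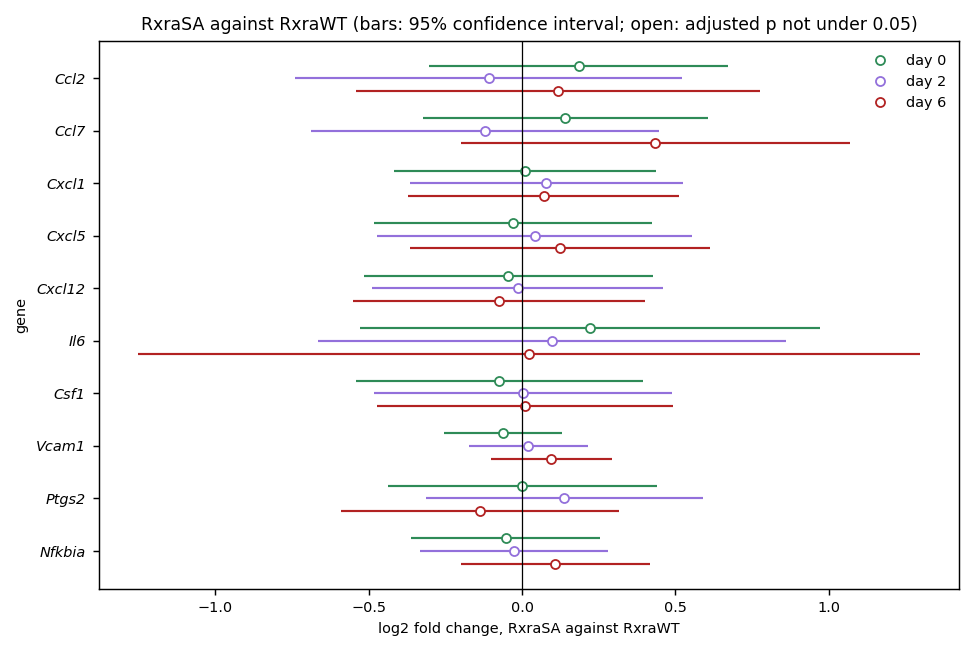
Log2 fold change of *Rxra*SA against *Rxra*WT for each of the 10 genes at days 0, 2 and 6, with 95% confidence intervals as bars and open points because no adjusted p was under 0.05. Every interval includes 0, from the narrowest (*Vcam1*) to the widest (*Il6* at day 6).

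Between the clones some of the 10 genes passed the test on each day. Clone and library pool coincided in this design and cannot be told apart, so each difference below is between the libraries of clone 66 in pool 2 and those of clone 48 in pool 1. The fit counted same-numbered libraries of both genotypes as independent, although they deviated together. Its standard errors and p-values for clones may therefore be too small. *Cxcl12* was lower in clone 66 on each day, 2.21-fold at day 0 (log2 fold change -1.14 ± 0.24, adjusted p = 0.000599), 2.47-fold at day 2 (-1.30 ± 0.24, adjusted p = 0.000112) and 1.81-fold at day 6 (-0.86 ± 0.24, adjusted p = 0.00803), where its values were 53.9 to 140.5 CPM in clone 48 and 27.1 to 67.7 CPM in clone 66. At days 0 and 2 the libraries of the clones did not overlap. The day 6 call was lost without replicate 3 of clone 48 (-0.50, adjusted p = 0.105) and without replicate 1 of clone 66 (-0.58, adjusted p = 0.0668), the numbers with the highest and the lowest values.

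*Vcam1* was also lower in clone 66 on each day, with no overlap at any of them: -0.86 ± 0.08 on the log2 scale at day 0 (adjusted p = 7.45e-10), -0.76 ± 0.08 at day 2 (adjusted p = 8.42e-09) and -0.43 ± 0.08 at day 6 (adjusted p = 0.000128), where clone 48 had 26.9 to 31.2 CPM and clone 66 had 18.9 to 25.5 CPM. *Ptgs2* went the other way. It had 8.22 to 17.6 CPM at day 2 in clone 48 and 23.4 to 34.3 CPM in clone 66 (log2 fold change 1.26 ± 0.18, adjusted p = 2.72e-06), and at day 6 it was 2.93-fold higher in clone 66 (1.55 ± 0.18, adjusted p = 1.26e-07), while the day 0 difference of 0.46 ± 0.17 had an adjusted p of 0.0513. *Il6* was 2.90-fold lower in clone 66 at day 0 (-1.54 ± 0.29, adjusted p = 0.000164), again without overlap.

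At day 6 *Nfkbia* (-0.42 ± 0.13, adjusted p = 0.0131) and *Ccl7* (-0.81 ± 0.26, adjusted p = 0.0215) were lower in clone 66 as well. The *Nfkbia* call was lost without replicate 2 of clone 48 (-0.36, adjusted p = 0.116) and without replicate 3 of clone 66 (-0.41, adjusted p = 0.06). The *Ccl7* call was lost without replicate 1 of clone 48 *Rxra*WT, its highest *Rxra*WT library (adjusted p = 0.0912), without replicate 1 of clone 48 *Rxra*SA (adjusted p = 0.0503) or without replicate 3 of clone 66 *Rxra*SA (adjusted p = 0.0597). In all, 3 of the 10 genes were called at day 0, 3 at day 2 and 5 at day 6, against 23.7%, 30.0% and 26.2% of all genes tested, so the counts were near the share among all genes at days 0 and 2 and above it at day 6, where 2 of the 5 calls, *Vcam1* and *Ptgs2*, held in every fit with libraries left out. Summed markers also differed in range between clones. The 6 pre-adipocyte markers had 385 to 507 CPM in clone 48 and 346 to 923 CPM in clone 66 before induction, 36.4 to 89.3 and 76.2 to 129 CPM at day 2, and 50.4 to 194 and 81.5 to 287 CPM at the end. The 6 fat cell markers, to which *Ucp1* and *Cidea* added next to nothing, had 117 to 169 CPM in clone 48 and 78.7 to 120 CPM in clone 66 before induction. They had 2684 to 4388 and 2174 to 2836 CPM at day 2, and 6316 to 8912 and 4977 to 6475 CPM at the end. Their part in the differences between clones was not tested.

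**Figure D5:**
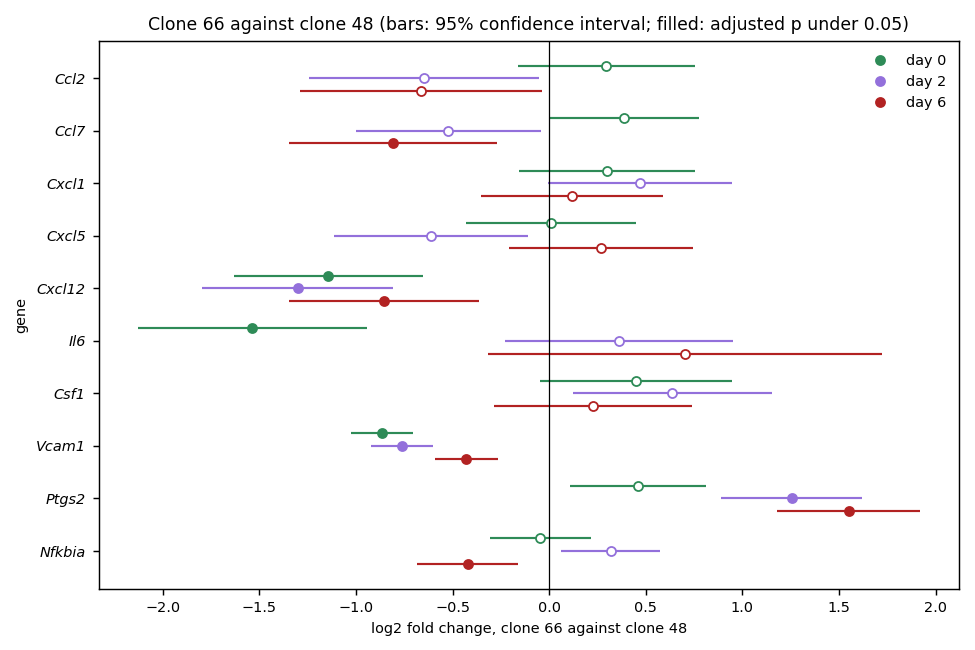
Log2 fold change of clone 66 against clone 48 for each of the 10 genes at days 0, 2 and 6, with 95% confidence intervals as bars and filled points for an adjusted p under 0.05. *Cxcl12* and *Vcam1* lie left of 0 on each day, *Ptgs2* moves right with time to 1.55 at day 6, and *Il6* passes the test at day 0 only, at -1.54.

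The course over time differed between clones for some of the 10 genes. From day 0 to day 2 the difference between clones passed the test for *Il6* (1.90 ± 0.41 on the log2 scale, clone 66 minus clone 48, adjusted p = 0.00283), which fell in clone 48 and rose in clone 66 (adjusted p = 0.0146 and 0.0018 within the clones), and for *Ptgs2*, which fell by 2.63 ± 0.19 in clone 48 and by 1.84 ± 0.18 in clone 66 (difference 0.80 ± 0.25, adjusted p = 0.0467). The *Il6* call held in all 42 fits with a library or a replicate number left out, and the *Ptgs2* call was lost in 20 of 36 fits without 1 library, with an adjusted p up to 0.0933, and in 5 of 6 fits without a replicate number of a clone, with an adjusted p up to 0.2 (without replicate 3 of clone 48). These were 2 of 10 genes, against 6.84% of all genes. With the replicate block, which adds a term for the shared replicate number of each clone, 5 of 10 were called, against 13.4% of all genes, *Ccl2* (-0.99 ± 0.28, adjusted p = 0.018), *Ccl7* (-0.92 ± 0.23, adjusted p = 0.00577) and *Nfkbia* (0.38 ± 0.12, adjusted p = 0.0319) among them.

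From day 2 to day 6 the test called *Nfkbia*, which fell by 0.63 ± 0.13 in clone 48 and by 1.37 ± 0.13 in clone 66 (difference -0.74 ± 0.18, adjusted p = 0.00882), against 6.18% of all genes. With the replicate block *Vcam1* was called too (0.33 ± 0.10, adjusted p = 0.0345), where 12.4% of all genes were. The *Nfkbia* call was lost without replicate 2 of clone 48 (adjusted p = 0.0898) and without replicates 2 or 3 of clone 66 (adjusted p = 0.0507 and 0.109).

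From day 0 to day 6 it called 4 genes, against 3.85% of all genes. *Il6* was lower by 3.67 ± 0.38 in clone 48 and by 1.42 ± 0.37 in clone 66 (difference 2.24 ± 0.57, adjusted p = 0.0187), and *Ptgs2* by 3.04 ± 0.19 and 1.94 ± 0.18 (difference 1.09 ± 0.25, adjusted p = 0.0078). *Vcam1* (0.44 ± 0.11, adjusted p = 0.019) also fell less in clone 66, whereas *Ccl7* fell more there (-1.20 ± 0.32, adjusted p = 0.0312), from 22.6-47.7 CPM to 0.873-2.17 CPM in clone 48 and from 36.5-67.4 CPM to 0.669-1.06 CPM in clone 66. Calls of these 4 genes were lost when single replicate numbers of a clone were left out. This held for *Ccl7* and *Vcam1* in 4 of 6 such fits each (adjusted p up to 0.211 and 0.202), for *Il6* in 3 (up to 0.113) and for *Ptgs2* in 2 (up to 0.102). Without 1 library, the *Ccl7* call was lost in 8 of 36 fits (up to 0.0909) and the *Il6* call in 2 (up to 0.0653). With the replicate block 5 genes were called, the fifth being *Ccl2* (-1.002 ± 0.295, adjusted p = 0.032), against 8.19% of all genes.

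Same-numbered libraries of a clone and day tended to have similar levels in both genotypes, least so at day 0. At day 0 in clone 48, replicate 3 was the highest in both genotypes for 6 genes, *Csf1*, *Cxcl1*, *Cxcl5*, *Nfkbia*, *Ptgs2* and *Vcam1*. For *Csf1*, replicate 3 was the highest in both genotypes of both clones on all 3 days. At each of the 3 days the spread within same-numbered pairs was smaller than the spread within groups for all 10 genes, with a median standard deviation at day 0 of 0.29 against 0.41, at day 2 of 0.16 against 0.39 on the log2 scale, and of 0.18 against 0.39 at day 6. For *Cxcl12* at day 6 it was 0.08 within pairs and 0.57 within groups.

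The genes whose courses were most alike among the 10, by the root mean square difference of log2 CPM centred on each gene's mean over the 36 libraries, were *Ccl2* and *Ccl7* (0.53), then *Cxcl5* and *Csf1* (0.65). Among 11618 other genes the nearest to *Ccl2* were *S100a4* (0.47), *Plat* (0.48) and *Tm4sf1* (0.49), and among the 3 nearest to *Ccl7* were *S100a4* (0.51), the first, and *Prkg2* (0.56), so that 1 gene headed both lists. *Cxcl1* was nearest to *Gpsm2* (0.31), *Ndc80* (0.34) and *Tex9* (0.35), *Cxcl5* to *Spire2* (0.41), *Arhgap28* (0.44) and *Fgf7* (0.45), and *Cxcl12* to *Tbx18* (0.38), *Osmr* and *Pcdh19* (both 0.45). *Vcam1* was nearest to *Ahr* (0.32), *Fstl1* (0.32) and *Slc5a7* (0.38), *Csf1* to *Ltbp1* (0.31), *Col16a1* (0.36) and *Dab2* (0.36), and *Ptgs2* to *Camkk1* (0.36), *Rcn3* (0.44) and *Tvp23a* (0.45). *Nfkbia* was nearest to *Cd164* (0.19), *Gpat4* (0.21) and *Ube2g2* (0.22), and *Il6* to *Rhoj* (0.64), *Isl1* (0.70) and *Postn* (0.75). The difference grows with how much a gene moves, and the root mean square of the centred values themselves ran from 0.64 for *Nfkbia* to 2.699 for *Ccl2*, so the values do not rank the members. All of these values rest on the same 36 libraries and describe likeness of course only.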

How the data were processed

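RNA of the cultured cells was sequenced as 36 stranded total RNA libraries (TruSeq, NextSeq). Before depositing them, the authors made raw counts of read pairs per gene with STAR 2.7.0d and featureCounts 1.6.2, without using strand, on GRCm38 with GENCODE M21. From these counts, 16723 of 55536 genes passed the low-count filter of edgeR 4.0.16 (R 4.3.3), all 10 members among them. Counts were scaled by TMM and tested with the edgeR quasi-likelihood test with Benjamini-Hochberg adjustment over all tested genes (adjusted p under 0.05). The model had a term for each genotype and day, with clone as a covariate, and for differences between clones a term for each clone, genotype and day. Values after ± are standard errors. Alternatives were DESeq2 1.42.0, library-size scaling, no filter, the compared days alone, a replicate block and omission of libraries. Within-clone contrasts were added after seeing the data. The members and all lists were chosen with earlier results of these data known. Of each list, the genes named were up to 2 with the largest absolute log2 fold change among those called in each time comparison whose average log2 CPM reached 1. The 3 genes nearest each member were sought among genes above the same average.

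Same-numbered libraries of both genotypes deviated together in all 18 pairs (correlation of their deviations from the group means 0.176 to 0.930, median 0.827, over 9381 genes), so the numbers were taken to pair the libraries. The main fits for time and clone took no account of this pairing, so their standard errors may be too small. The deposited design calls the replicates technical and the study's methods call them independent, so p-values may measure technical spread only. Library totals of 11351078 to 24349263 counts set the precision, and intervals cover the spread between libraries. The test was checked on simulated counts drawn independently for each library. That check does not cover the shared deviations of same-numbered libraries. Some listed genes are not reported here.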

Additional observations from a re-analysis of the deposited data

Results flagged for a closer look

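The *Ccl7* level of replicate 1 of clone 48 *Rxra*WT at day 6, 1.62 CPM, stood apart from the other 5 *Rxra*WT libraries of that day, which had 0.771 to 1.02 CPM. It was the only one of 60 groups of 6 libraries (10 genes, 3 days, 2 genotypes) with such a gap, where about 3 would be set apart by chance, at 1 in 20.

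The other 7 entries are differences between clone 66 and clone 48 in the change over time that passed the edgeR test, given on the log2 scale as clone 66 minus clone 48. From day 0 to day 2 they were *Il6* (1.90, adjusted p = 0.00283) and *Ptgs2* (0.80, adjusted p = 0.0467), and from day 2 to day 6 *Nfkbia* (-0.74, adjusted p = 0.00882). From day 0 to day 6 they were *Il6* (2.24, adjusted p = 0.0187), *Ptgs2* (1.09, adjusted p = 0.0078), *Vcam1* (0.44, adjusted p = 0.019) and *Ccl7* (-1.20, adjusted p = 0.0312). The *Il6* values at day 6 rest on 1 to 11 counts per library.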

How the results depend on the processing

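None of the log2 fold changes of the 10 genes that passed the test changed sign under any alternative run. The time comparisons called 9, 6 and 10 of the 10 genes (day 2 against 0, day 6 against 2, day 6 against 0), and with libraries left out 9 to 9, 6 to 7 and 10 to 10. Genotype, alone or with time, gave 0 with every omission and setting. The clone comparisons called 3, 3 and 5 genes at days 0, 2 and 6, and 3 to 5, 3 to 6 and 3 to 5 with omissions. At day 2 they called 5 without the low-count filter and 5 from the libraries of that day alone. The clone-by-time comparisons called 2, 1 and 4, and 1 to 3, 0 to 2 and 1 to 4 with omissions. For day 2 against day 0 there was 1 call by library size alone and 1 from those days alone. With the replicate block the clone-by-time counts were 5, 2 and 5, and no other call on the 10 genes changed with the block. Clone contrasts within a day cannot hold it. They count same-numbered libraries of both genotypes as independent, so their calls may be overstated.

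Outside the omissions, 13 values of single genes passed the test newly and 6 no longer did: *Cxcl12* between clones at day 6 (days alone, adjusted p = 0.0505), *Nfkbia* at day 6 against day 0 (library size, 0.0571), *Vcam1* in clone by time to day 6 (library size 0.0809, no filter 0.263) and *Ptgs2* in clone by time to day 2 (library size 0.0595, days alone 0.0747); the cause was not tested. Among clone-by-time calls to day 6, the share higher in clone 66 went from 54.7% to 43.3% with library size, and among clone calls at day 6 from 51.2% to 41.0%. *Il6* at day 6 is limited by depth, and clone cannot be told from library pool.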
